A study of Mus musculus with 12 samples.

Results

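The subject is a set of 45 mouse genes that repair DNA or carry the DNA damage checkpoint signal. The genes were chosen by name, and a probe was taken for a gene where the array file gave that gene symbol and the spot was not a control. Of the 45 genes, 44 had such a probe and were tested among 18870 genes in all. Atr was not analysed here. They comprised 8 genes of double-strand break ends and recombination, 4 of the Fanconi anaemia pathway, 4 of mismatch repair, 10 of base excision and single-strand break repair, 8 of nucleotide excision repair, 5 of end joining, 4 checkpoint genes and 1 gene of direct reversal.

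RNA was measured on 12 one-colour Agilent arrays, with 3 arrays in each of 4 groups. C2C12 is an established mouse muscle cell line: its myoblasts divide, and in low serum they fuse into myotubes. The myoblasts were taken at about 50% confluence. The myotubes were taken 96 hours into differentiation and then trypsinized and replated for 30 min, a step meant to reduce the mononucleated cells among them. The EDL (extensor digitorum longus, fast and glycolytic) and the soleus (slow and oxidative) were taken from male CD1 mice aged 3 months, and each sample held the muscles of both hind limbs of 1 mouse. The cultures all derive from the same cell line, and neither separate growth of the cultures in a group nor a shared mouse behind an EDL and a soleus sample is stated in the labels. The p-values therefore measure only the spread between these samples.

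Between 57.4% and 72.9% of probes were well above background on an array. The level given for a gene is the log2 of the scanner signal of its brightest usable probe minus the 75th percentile of that array, plus a constant of 9.71, so it can be compared between groups but not between genes. The unscaled 75th percentile was 1065 to 1649 on culture arrays and 476 to 640 on muscle arrays, and scaling by spike-in control RNA in place of the percentile moved every gene by -0.36 where myotubes are set against myoblasts, by -0.97 and -1.24 where EDL and soleus are set against myotubes, and by -0.27 where soleus is set against EDL. Every difference below is a log2 difference, first group minus second, on the percentile scale unless another is named. Of 16 proliferation markers, 16 were lower in myotubes than in myoblasts (median log2 difference -5.73), and 13 in EDL and 14 in soleus were lower than in myotubes. Their summed signal was 333575 to 358983 in myoblasts, 21823 to 22711 in myotubes, 7572 to 8147 in EDL and 9221 to 10107 in soleus. The muscles were whole tissue: all 6 endothelial markers, all 6 fibroblast markers and 6 of 7 macrophage markers were higher in both muscles than in myotubes. Of the endothelial markers, Pecam1, Cdh5 and Emcn were not well above background on any culture array. In such samples fewer cells of a type and less RNA per cell cannot be told apart.

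DNA damage is handled by several pathways. Base excision repair removes single damaged bases, nucleotide excision repair cuts out bulky lesions such as those made by ultraviolet light, and mismatch repair corrects copying errors left by DNA polymerases. Double-strand breaks are rejoined directly by end joining at any time, or copied from the sister chromatid by homologous recombination, which needs replicated DNA and so operates in dividing cells. Muscle fibres and myotubes no longer replicate their nuclear DNA.

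Many genes of DNA replication and recombination carry binding sites for E2F, the family of transcription factors that drives entry into S phase. In RefSeq promoters of build GRCm38.p6, running from 250 bases before to 50 bases after each gene start, 36 of the 45 genes had an entry. These were searched on both strands for the E2F letters TTTCCCGC, TTTGGCGC, TTTCGCGC and TTTGCCGC. A match lay in 8 of the 36 genes (22.2%), against 704 of 27025 genes (2.6%) and 744 of 32851 promoters of the same length (2.3%). It was present in 4 of the 16 genes that were lower in myotubes than in myoblasts and in 4 of the 19 that were not; the remaining gene with an entry is Atr. The 7 windows with the match before the gene start are shown because they set genes that were lower in myotubes (Bard1, Brca2, Chek2) beside genes that were not called lower there (Fancg, Msh3, Nthl1, Xrcc6). Each is written 5′ to 3′ on the strand of the gene, with the match in capitals and 30 bases on each side.
Bard1 promoter, chr1:71103144-71103211, minus strand: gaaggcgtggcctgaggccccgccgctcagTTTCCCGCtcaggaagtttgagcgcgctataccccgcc
Brca2 promoter, chr5:150522423-150522490, plus strand: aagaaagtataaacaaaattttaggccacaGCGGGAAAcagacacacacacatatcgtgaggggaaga
Chek2 promoter, chr5:110839801-110839868, plus strand: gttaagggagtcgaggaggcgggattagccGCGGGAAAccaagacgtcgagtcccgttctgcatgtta
Fancg promoter, chr4:43010316-43010383, minus strand: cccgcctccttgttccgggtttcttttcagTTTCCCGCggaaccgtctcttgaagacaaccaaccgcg
Msh3 promoter, chr13:92355164-92355235, minus strand: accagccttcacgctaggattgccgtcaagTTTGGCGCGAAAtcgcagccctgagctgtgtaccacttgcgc
Nthl1 promoter, chr17:24632520-24632587, plus strand: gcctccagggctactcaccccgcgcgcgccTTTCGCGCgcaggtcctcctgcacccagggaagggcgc
Xrcc6 promoter, chr15:82016293-82016360, plus strand: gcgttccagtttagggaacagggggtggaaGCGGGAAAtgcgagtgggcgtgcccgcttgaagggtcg
In Bard1 the match begins at base -209 from the start, in Brca2 at -168, in Chek2 at -152, in Fancg at -52, in Msh3 at -202, in Nthl1 at -132 and in Xrcc6 at -46. The Msh3 run holds 2 overlapping matches, one on each strand. The match of Msh6 begins 15 bases after the start and is not shown. The CHR letters TTTGAA, a cell cycle element, lay in 2 of the 36 genes (5.6%), in 20.2% of all genes and in 17.9% of all promoters, and the letters CCAAT in 20 of the 36 (55.6%), in 41.1% of all genes and in 37.4% of all promoters. A match to letters is not evidence of binding.

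**Figure D1:**
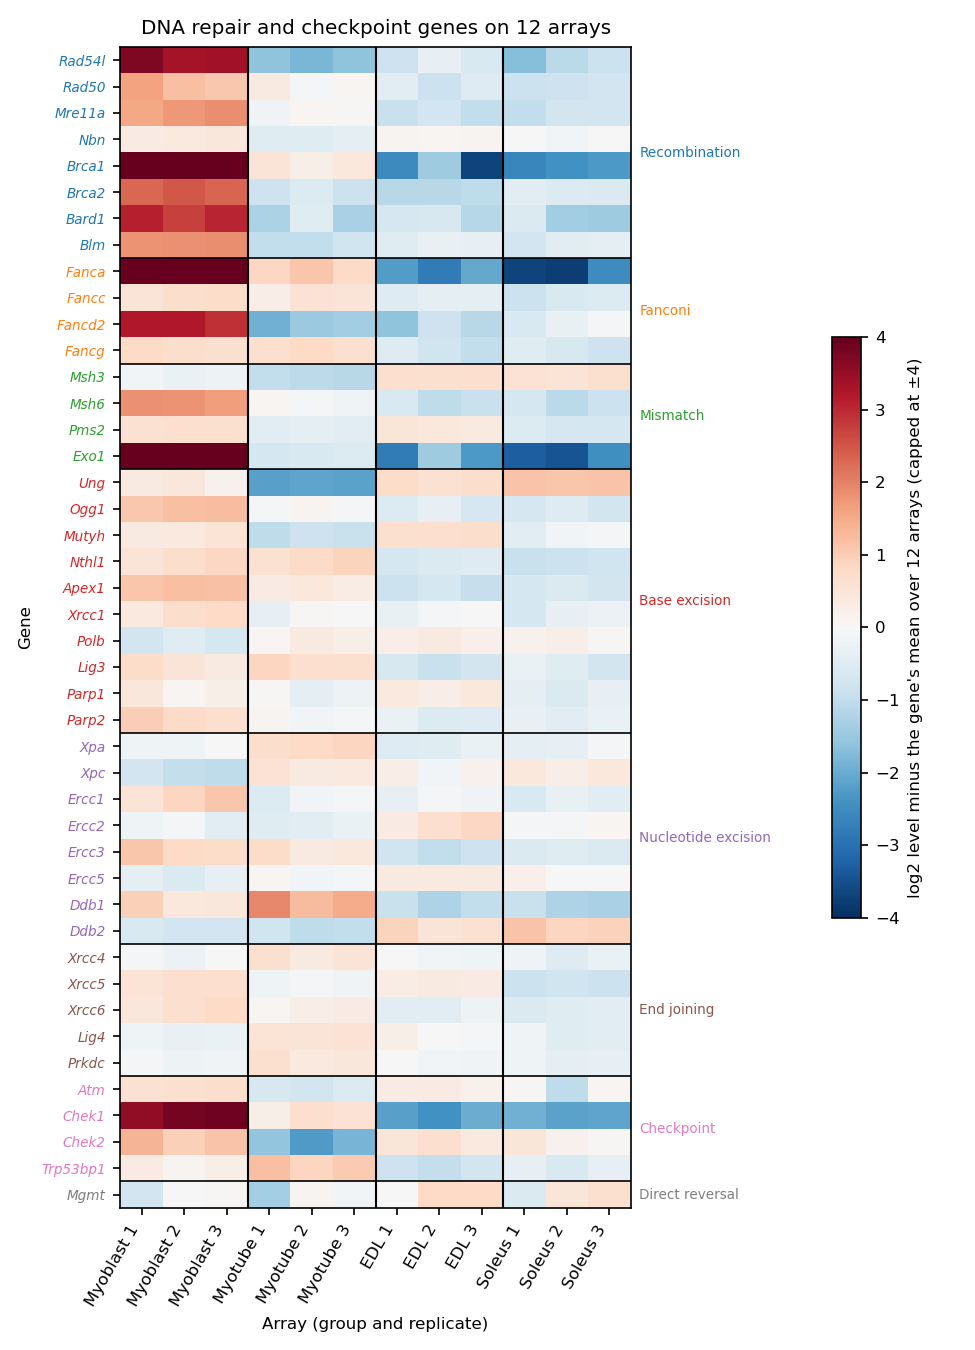
Levels of the 44 genes (rows, grouped by role) on the 12 arrays (columns), each as the log2 level minus the mean of that gene over the arrays, with red above and blue below that mean. Recombination genes, Exo1, Fanca and Chek1 are red on all 3 myoblast arrays, and most end joining genes stay near white.

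Myotubes were set against myoblasts to see how the repair genes differ between dividing and fused cells of the same line. In myotubes 19 of the 44 genes were lower and 1 was higher, which is 43.2% lower where 16.2% of all genes tested were lower, and 2.27% higher where 19.3% of all genes were higher. In either direction 45.5% of the repair genes were called, where 35.4% of all genes were. A gene is called lower or higher at a limma adjusted p under 0.05, with Benjamini-Hochberg adjustment over all genes, and a difference of at least 2-fold. The median log2 difference of the 44 genes was -0.83, beside 0.06 over all genes. The lower genes were 7 of 8 in recombination, 3 of 4 in mismatch repair, 3 of 4 in the checkpoint group, 2 of 4 in the Fanconi pathway, 3 of 10 in base excision, 1 of 8 in nucleotide excision and 0 of 5 in end joining. All 20 called genes had the same sign on each of the 3 slides. They were called on these same arrays, so the shared sign is not separate support. For 38 of the 44 genes (86.4%, beside 68.9% of all genes) the arrays of both groups did not overlap. On the spike-in scale 22 were lower and 0 higher. The median over all genes was -0.30 there, and the share of all genes called on that scale is not given here.

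In the comparisons of muscle with myotubes the calls went in both directions, for different genes. In EDL 6 genes were higher and 12 lower than in myotubes (40.9% called, beside 47.9% of all genes; 13.6% higher beside 28.4%, and 27.3% lower beside 19.6%). In soleus 5 were higher and 13 lower (40.9% called, beside 45.4% of all genes; 11.4% higher beside 26.1%, and 29.5% lower beside 19.3%). The median differences were -0.38 in EDL and -0.48 in soleus, where all genes had 0.23 and 0.15. The EDL median was -0.15 as the mean of probes, and the soleus median was -0.23 with normexp background correction. Both were lower on the spike-in scale (-1.34 and -1.71). The groups did not overlap for 38 genes in EDL (beside 76.3% of all genes) and for 33 in soleus (beside 74.1%). Both comparisons use the same 3 myotube arrays, so their values are not independent of each other. On the spike-in scale the split moved to 2 higher and 24 lower in EDL and to 1 higher and 32 lower in soleus. All genes moved down on that scale too, to medians of -0.73 in EDL and -1.08 in soleus. The share of all genes called there is not given here. Between soleus and EDL 2 of the 44 genes differed, both lower in soleus (4.55%, beside 9.74% of all genes called in either direction and 4.8% called lower), and 20 did not overlap (45.5%, beside 44.8%).

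**Figure D2:**
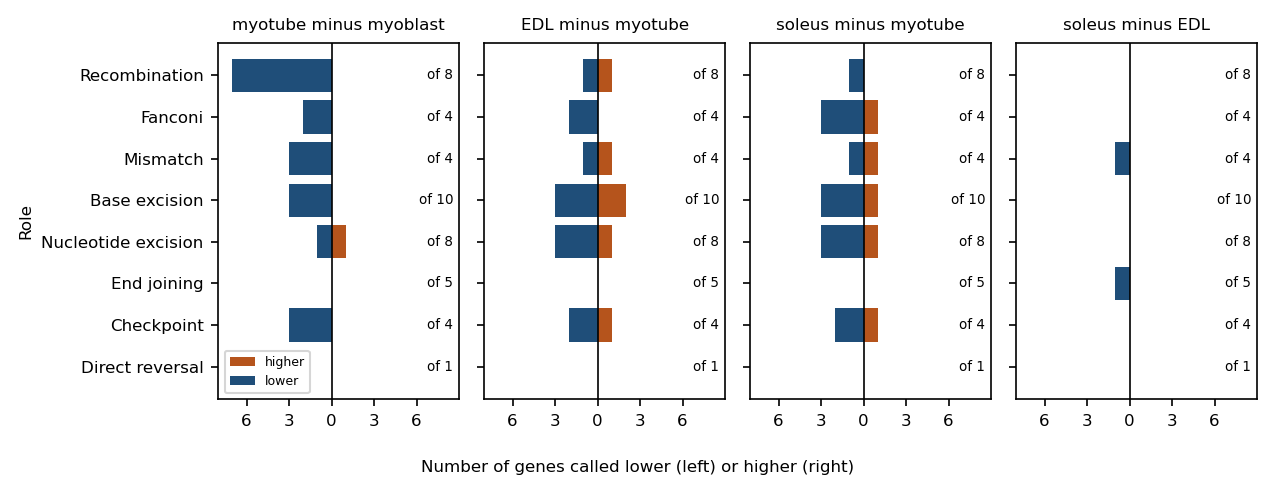
Number of genes of each role called lower (blue, to the left) or higher (orange, to the right) in 4 comparisons, with the number of genes tested at the right of each row. Recombination has 7 of 8 genes lower in myotubes than in myoblasts, and end joining has no call in the 3 comparisons that involve myotubes.

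Recombination repairs a double-strand break by resecting its ends and copying the intact sister. In myotubes Rad54l, Rad50, Mre11a, Brca1, Brca2, Bard1 and Blm fell, and the median difference of the 8 genes was -2.93. Rad54l, a motor protein that acts on DNA during recombination, read 9.55, 9.12 and 9.18 in myoblasts, 4.21, 3.99 and 4.18 in myotubes, 4.99, 5.48 and 5.19 in EDL, and 4.11, 4.73 and 4.95 in soleus. All myoblast arrays were far above the other groups, at a difference of -5.16 (SE 0.22, adjusted p = 1.07e-08), or 35.6-fold. Its EDL arrays did not overlap the myotube arrays either, and the gene was called higher in EDL than in myotubes by 1.09 (SE 0.22, adjusted p = 0.00102). That call was lost in 6 alternatives: on the spike-in scale the difference was 0.13, with quantile normalization 0.46, without slide 2 (replicate 2 of every group) 0.89 and without EDL replicate 2 it was 0.96. Only 2 of 3 arrays of each muscle were well above background for this probe, which lies at chromosome 4, 115596433 to 115596492 of build mm8, the build of the array design. Gene models of mm8 were not used here, and exon or untranslated region is therefore left out for every probe.

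Brca1 encodes a ubiquitin ligase that promotes end resection (probe at chromosome 11, 101305185 to 101305244, mm8). Its level was 11.08, 10.85 and 11.03 in myoblasts, 6.89, 6.62 and 6.80 in myotubes, 3.82, 4.95 and 2.67 in EDL, and 3.78, 3.97 and 4.08 in soleus. Myotubes lay below myoblasts, at -4.22 (SE 0.43, adjusted p = 1.03e-05) and both muscles lay below myotubes, at -2.96 (SE 0.43, adjusted p = 0.000119) in EDL and -2.82 (SE 0.43, adjusted p = 0.000171) in soleus. The EDL arrays spanned from 2.67 to 4.95, and only 1 array of each muscle was well above background. The other Brca1 probe gave -4.94 in myotube minus myoblast and was above background on none of the 9 myotube and muscle arrays, where it read 0.40 (EDL) and 0.33 (soleus) against myotubes. With normexp background correction the difference from myotubes was -0.57 in EDL and 0.32 in soleus, neither called.

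Bard1, the partner of Brca1, was above background on the 3 myoblast arrays only, at 6.61, 6.23 and 6.56. It was at least 7.99-fold lower in myotubes, 4.12-fold lower in EDL and 5.06-fold lower in soleus than in myoblasts; these bounds set each array of the dim group at the higher of its own reading and the lowest signal above background on that array. The fitted difference in myotubes was -3.98 (SE 0.28, adjusted p = 5.97e-07). With normexp the differences of Bard1 from myoblasts were -1.98 in myotubes, -1.38 in EDL and -0.48 in soleus, none called. Here and below, such minimum folds therefore depend on the main background subtraction, and they were not themselves tested. Brca2, a mediator of recombination, read 11.13, 11.31 and 11.16 in myoblasts, 8.00, 8.29 and 7.99 in myotubes, 7.72, 7.73 and 7.81 in EDL, and 8.38, 8.28 and 8.25 in soleus. Its myoblast arrays were above the other 9, and its difference in myotubes was -3.11 (SE 0.10, adjusted p = 1.16e-09). Neither muscle was called against myotubes for Brca2 (-0.34 in EDL, 0.21 in soleus).

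Blm, the helicase that dissolves crossed DNA strands, differed by -2.75 (SE 0.11, adjusted p = 7.26e-09) in myotubes. Mre11a, Rad50 and Nbn form the complex that binds broken ends for recombination, end joining and Atm activation. Mre11a read 11.39, 11.57 and 11.68 in myoblasts, 9.68, 9.90 and 9.88 in myotubes, 8.96, 9.06 and 8.84 in EDL, and 8.86, 9.09 and 9.07 in soleus, lower in myotubes, at -1.73 (SE 0.11, adjusted p = 2.54e-07). The other Mre11a probes read -0.43 and -1.83 in myotube minus myoblast, and -0.03 and -1.51 in EDL minus myoblast. In EDL minus myotube they read 0.40 and 0.32, where the brightest probe read -0.87. As the mean of its probes Mre11a was still called lower in myotubes (-1.33). Rad50 was lower, at -1.18 (SE 0.16, adjusted p = 0.000107), with all muscle arrays between 7.43 and 7.85 against 8.22 to 8.64 in myotubes; with normexp the myotube call was lost (-1.06, adjusted p = 0.0724). Nbn was the one recombination gene not called in myotubes, at -0.84 (SE 0.07, adjusted p = 2.56e-06), and with spike-in scaling its -1.20 was called. In all 3 groups other than myoblasts, 7 of 8 recombination genes were lower than in myoblasts. Among all genes 16.2% were lower in myotubes, 24.2% in EDL and 24.1% in soleus.

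The Fanconi anaemia pathway unhooks crosslinks between DNA strands. Fancd2, the protein whose ubiquitination marks the crosslink (probe at chromosome 6, 113562636 to 113562695, mm8), read 9.95, 9.96 and 9.67 in myoblasts, 4.82, 5.25 and 5.36 in myotubes, 5.12, 5.92 and 5.64 in EDL, and 6.14, 6.43 and 6.66 in soleus. It was lower in myotubes than in myoblasts, at -4.71 (SE 0.22, adjusted p = 2.71e-08), a 26.2-fold difference. In soleus all 3 arrays were above all myotube arrays and the gene was called higher than in myotubes by 1.27 (SE 0.22, adjusted p = 0.000474), but not with spike-in scaling (0.03), quantile normalization (0.77), the values deposited by the authors (0.77) or the mean of its probes (0.68). The EDL arrays overlapped those of myotubes.

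Fanca, a subunit of the core ligase complex that modifies Fancd2 (probe at chromosome 8, 126154400 to 126154459, mm8), read 11.36, 11.48 and 11.14 in myoblasts, 7.40, 7.67 and 7.34 in myotubes, 4.33, 3.78 and 4.53 in EDL, and 2.87, 2.79 and 4.04 in soleus. It was lower in myotubes than in myoblasts, at -3.86 (SE 0.31, adjusted p = 1.71e-06). Neither muscle was well above background on any array. The fitted differences from myotubes were -3.26 in EDL and -4.24 in soleus (adjusted p = 4.65e-06 and 6e-07). By the bound used for Bard1, EDL was at least 8.02-fold and soleus at least 8.97-fold below myotubes. Against myoblasts the bounds were 116.4-fold and 130.1-fold. They hold for this probe and the main background subtraction only. The other Fanca probe was well above background in myoblasts alone and read 1.40 (EDL) and 0.84 (soleus) against myotubes. With normexp the differences from myotubes were -0.87 and -0.13, neither called, and the mean of its probes gave -0.93 in EDL, not called. Fancg, another core subunit, was level between the cultures (-0.02, SE 0.13, adjusted p = 0.908) and lower than in myotubes, at -1.45 (SE 0.13, adjusted p = 2.45e-06) in EDL and -1.35 (SE 0.13, adjusted p = 4.52e-06) in soleus. Of its other 2 probes 1 read 0.15 in soleus minus myotube, and the mean of its probes gave -0.96 there, not called. Fancc was lower in soleus than in myotubes, at -1.13 (SE 0.12, adjusted p = 8.12e-06) and was not called in EDL (-0.88). With normexp the soleus value was -0.13 and not called, while EDL was called with quantile normalization (-1.09) and on the spike-in scale (-1.85).

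**Figure D3:**
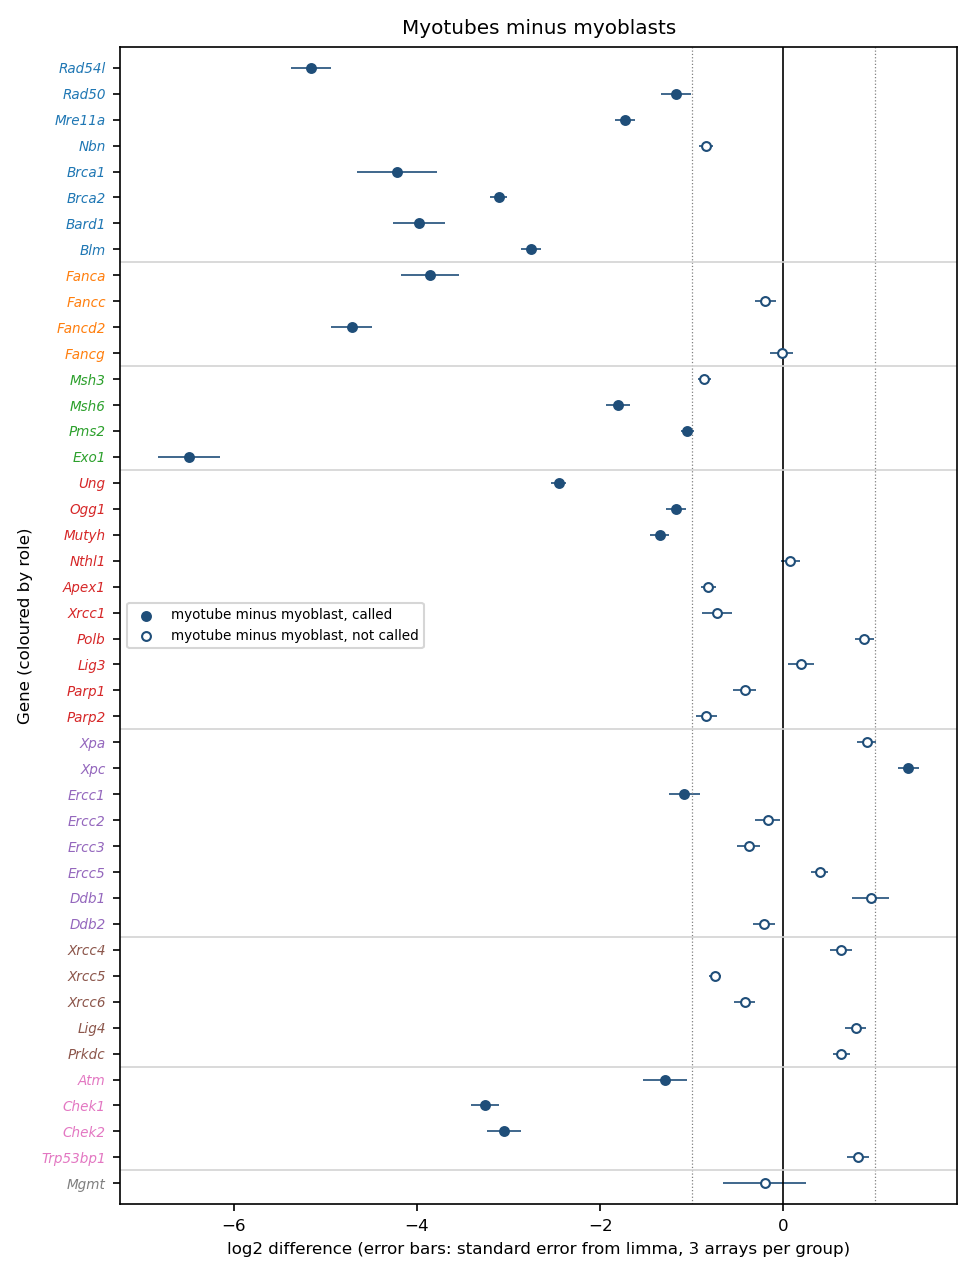
Log2 difference of each gene in myotubes minus myoblasts (horizontal axis) with its standard error from limma, filled where called and open where not, with dotted lines at 2-fold. The points reach from -6.49 (Exo1) to 1.36 (Xpc), and Xpc is the one filled point to the right of 0.

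Mismatch repair recognizes wrongly paired bases with complexes that hold Msh6 or Msh3, cuts the new strand with one that holds Pms2, and degrades it with Exo1. Exo1, the exonuclease, had the largest difference of the 44 genes in myotube minus myoblast. It read 12.59, 12.59 and 12.44 in myoblasts, 5.97, 6.08 and 6.12 in myotubes, 3.87, 5.26 and 4.37 in EDL, and 3.37, 3.22 and 4.23 in soleus. The fall in myotubes was -6.49 (SE 0.34, adjusted p = 5.36e-08), or 89.6-fold, with the groups more than 6 log2 units apart. Both muscles were lower again, at -1.55 (SE 0.34, adjusted p = 0.00183) in EDL and -2.45 (SE 0.34, adjusted p = 7.83e-05) in soleus, with 1 array of 3 well above background in each; with normexp these became -0.11 and 0.61, neither called. Its probe lies at chromosome 1, 177745226 to 177745285 (mm8).

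Msh6 read 13.62, 13.61 and 13.47 in myoblasts, 11.88, 11.75 and 11.67 in myotubes, 11.20, 10.78 and 10.90 in EDL, and 11.11, 10.72 and 10.93 in soleus, with every myoblast array above the rest, and was lower in myotubes, at -1.80 (SE 0.13, adjusted p = 7e-07). Its muscle values against myotubes were -0.80 in EDL and -0.84 in soleus, under the 2-fold limit. Msh3 recognizes longer loops (probe at chromosome 13, 93312956 to 93313015, mm8). It read 10.38, 10.23 and 10.30 in myoblasts, 9.50, 9.44 and 9.39 in myotubes, 11.15, 11.13 and 11.16 in EDL, and 11.07, 11.03 and 11.13 in soleus. Every muscle array lay above every culture array, and Msh3 was higher than in myotubes by 1.71 (SE 0.07, adjusted p = 5.16e-09) in EDL and 1.63 (SE 0.07, adjusted p = 7.58e-09) in soleus. All 4 Msh3 probes were higher in both muscles than in myotubes, by 0.97 to 1.74. On the spike-in scale the differences were 0.74 and 0.40, not called. In myotubes Msh3 was -0.86 against myoblasts, not called, though it was called as the mean of its probes (-1.25) and on the spike-in scale (-1.22).

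Pms2, the endonuclease subunit (probe at chromosome 5, 144184692 to 144184751, mm8), read 10.04, 10.09 and 10.05 in myoblasts, 9.02, 9.03 and 8.99 in myotubes, 9.92, 9.84 and 9.77 in EDL, and 8.88, 8.76 and 8.73 in soleus. It was lower in myotubes, at -1.05 (SE 0.07, adjusted p = 4.02e-07) and lower in soleus than in EDL, at -1.05 (SE 0.07, adjusted p = 2.4e-06), with no overlap between the groups in either comparison. The other Pms2 probe, well above background on all 12 arrays, read -0.99 in myotube minus myoblast and 0.49 in soleus minus EDL, so the probes differ in sign between the muscles. Pms2 was lower in soleus than in EDL by 0.28 as the mean of its probes, by 0.76 with normexp and by 1.32 on the spike-in scale (adjusted p = 0.0957), none called. The myotube call was lost with normexp (-0.88).

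Base excision repair begins with a glycosylase that removes one damaged base. Ung, the glycosylase that removes uracil, read 11.64, 11.74 and 11.44 in myoblasts, 9.13, 9.19 and 9.14 in myotubes, 12.02, 11.91 and 11.99 in EDL, and 12.42, 12.40 and 12.42 in soleus. Myotubes were the low group: they lay below myoblasts, at -2.45 (SE 0.08, adjusted p = 2.23e-09), and EDL and soleus lay above myotubes by 2.82 (SE 0.08, adjusted p = 5.37e-10) and 3.26 (SE 0.08, adjusted p = 2.34e-10). The soleus arrays were the highest of all, at 12.40 to 12.42, and the muscles against myoblasts were 0.37 and 0.81, not called. Ung was also called in both muscles on the spike-in scale, where it was the one gene of the 44 called higher in soleus. Its single probe lies at chromosome 5, 114400198 to 114400257 (mm8).

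Mutyh, which removes adenine placed opposite an oxidized guanine, read 8.12, 8.16 and 8.30 in myoblasts, 6.76, 6.92 and 6.86 in myotubes, 8.41, 8.44 and 8.46 in EDL, and 7.33, 7.64 and 7.68 in soleus. It was lower in myotubes than in myoblasts, at -1.35 (SE 0.10, adjusted p = 1.11e-06) and higher in EDL than in myotubes by 1.59 (SE 0.10, adjusted p = 2.05e-07), a difference not called on the spike-in scale (0.62). In soleus the difference from myotubes of 0.70 was under the 2-fold limit, and soleus and EDL differed by -0.89 (SE 0.10, adjusted p = 0.000117), also under it. Ogg1, which removes the oxidized guanine itself, was lower in myotubes, at -1.17 (SE 0.11, adjusted p = 4.71e-06) and in both muscles compared with myoblasts (-1.68 and -1.80), but the myotube call was lost with normexp (-0.98). Nthl1, which removes oxidized pyrimidines, read 9.83, 10.03 and 10.16 in myoblasts, 9.94, 10.09 and 10.22 in myotubes, 8.63, 8.76 and 8.79 in EDL, and 8.42, 8.48 and 8.54 in soleus. The cultures were level and both muscles were lower than myotubes, at -1.36 (SE 0.10, adjusted p = 8.33e-07) in EDL and -1.60 (SE 0.10, adjusted p = 2.31e-07) in soleus.

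The next steps of the pathway cut the backbone, fill the gap and seal it. Apex1, the endonuclease that cuts at the missing base, was lower than in myotubes, at -1.18 (SE 0.08, adjusted p = 3.79e-07) in EDL and -1.02 (SE 0.08, adjusted p = 1.35e-06) in soleus; the soleus value sits at the 2-fold limit and was not called in 5 alternatives, which include leaving out myotube replicate 2 (-0.98), soleus replicate 3 (-0.99) or soleus replicate 1. Lig3, the ligase of this pathway and of mitochondrial DNA, was lower, at -1.48 (SE 0.14, adjusted p = 4.59e-06) in EDL and -1.22 (SE 0.14, adjusted p = 2.23e-05) in soleus. The soleus call of Lig3 was lost as the mean of its probes (-0.97) and with normexp (-0.78), and its other probe, above background on all 12 arrays, read -0.72 there. The gap-filling polymerase Polb was not called in any of the 4 main comparisons (0.89 in myotube minus myoblast). With normexp Polb was called higher than in myoblasts in myotubes (1.03) and EDL (1.02), not in soleus (0.55). As the mean of its probes it was called against myoblasts in EDL (1.22) and soleus (1.31), not in myotubes (0.72). Its other probes read 1.30 and -0.02 in myotube minus myoblast. The scaffold Xrcc1 and the break sensors Parp1 and Parp2 were not called in the 4 main comparisons either. Parp1 had group means within 0.79 of each other, and its arrays ran from 11.07 to 12.09. Of the 10 genes, 3 were lower in myotubes, 2 higher and 3 lower in EDL than in myotubes, and 1 higher and 3 lower in soleus than in myotubes. Among all genes 16.2% were lower in myotubes, 28.4% higher and 19.6% lower in EDL, and 26.1% higher and 19.3% lower in soleus.

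Nucleotide excision repair had 1 gene higher and 1 lower of 8 in myotubes, with a median difference of 0.11. Among all genes 19.3% were higher and 16.2% lower, with a median of 0.06. Xpc, which finds the distorted helix (probe at chromosome 6, 91455366 to 91455425, mm8), read 9.92, 9.72 and 9.65 in myoblasts, 11.26, 11.05 and 11.07 in myotubes, 10.94, 10.58 and 10.86 in EDL, and 11.10, 10.94 and 11.09 in soleus. It was the one repair gene of the 44 called higher in myotubes than in myoblasts, by 1.36 (SE 0.12, adjusted p = 2.52e-06), and its other probe gave 1.38. On the spike-in scale the difference was 1.00 with an adjusted p of 0.0654, not called. Xpc was also higher than in myoblasts in EDL, by 1.03 (SE 0.12, adjusted p = 1.35e-05), and in soleus, by 1.28 (SE 0.12, adjusted p = 2.35e-06), but on the spike-in scale these were -0.30 and -0.32, with normexp 0.94 and 0.98, none called, and the EDL call was lost without myoblast replicate 3 (0.97), EDL replicate 1 (0.95) or EDL replicate 3 (1.00). Ercc1, part of the nuclease that cuts on the 5′ side, was lower in myotubes, at -1.08 (SE 0.17, adjusted p = 0.000235) and was not called with normexp (-0.94), without myoblast replicate 3 (-0.95) or without myotube replicate 1 (-0.93).

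Ddb1 and Ddb2 together recognize ultraviolet lesions, and Ddb1 is also the adaptor of a large family of ubiquitin ligases. They moved in opposite directions between myotubes and muscle. Ddb1 (probe spanning chromosome 19, 10694865 to 10695484, mm8) read 13.03, 12.51 and 12.53 in myoblasts, 14.01, 13.36 and 13.57 in myotubes, 11.20, 10.84 and 11.11 in EDL, and 11.18, 10.86 and 10.79 in soleus. Myotubes were its highest group, 0.96 above myoblasts, which was called without myoblast replicate 1 (1.13), slide 2 (1.01) or myotube replicate 2. The difference was also called with normexp (1.12), but on the spike-in scale it was 0.60 and not called. EDL and soleus lay below myotubes, at -2.60 (SE 0.20, adjusted p = 8.36e-07) and -2.70 (SE 0.20, adjusted p = 6.41e-07), about 6-fold each (6.05 and 6.51). Ddb2 (probe spanning chromosome 2, 91013139 to 91013322, mm8) read 7.26, 7.09 and 7.10 in myoblasts, 7.09, 6.87 and 6.88 in myotubes, 8.75, 8.38 and 8.49 in EDL, and 9.02, 8.74 and 8.79 in soleus. The 6 muscle arrays lay above the 6 culture arrays, by 1.60 (SE 0.12, adjusted p = 6.63e-07) in EDL and 1.90 (SE 0.12, adjusted p = 1.74e-07) in soleus against myotubes, and by 1.39 and 1.70 against myoblasts. On the spike-in scale the muscle differences of Ddb2 from myotubes were 0.63 and 0.67 and those from myoblasts 0.06 and 0.10, none called, while those of Ddb1 were more negative. With normexp Ddb2 was not called against myoblasts either (0.41 and 0.72), nor in EDL against myotubes (1.23).

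Xpa, which verifies the lesion, was lower than in myotubes, at -1.21 (SE 0.11, adjusted p = 2.24e-06) in EDL and -1.06 (SE 0.11, adjusted p = 6.75e-06) in soleus; with normexp the soleus call was lost (-0.85). Ercc3, a helicase of the transcription factor TFIIH, was lower, at -1.37 (SE 0.13, adjusted p = 3.23e-06) and -1.05 (SE 0.13, adjusted p = 2.69e-05); the soleus value was -0.93 without replicate 1 and -0.94 without myotube replicate 1, neither called. The other TFIIH helicase, Ercc2, was not called, at 1.00 in EDL minus myotube, just under the limit; it passed without EDL replicate 1 (1.14) or without myotube replicate 3 (1.07). Ercc5, the nuclease that cuts on the 3′ side, had the smallest spread of group means among the 44 genes, 0.79.

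End joining seals broken ends without a template, through the Ku dimer Xrcc5 and Xrcc6, the kinase Prkdc and the ligase Lig4 with its partner Xrcc4. No gene of the 5 was called when myotubes were compared with myoblasts, EDL or soleus, although all 5 passed an adjusted p of 0.05 in each of them, below the 2-fold limit. In myotubes Xrcc4, Lig4 and Prkdc read 0.63, 0.79 and 0.63 against myoblasts, and the Ku genes Xrcc5 and Xrcc6 read -0.75 and -0.42. In soleus all 5 lay between -0.89 and -0.71 against myotubes. Xrcc5 (probe spanning chromosome 1, 72316648 to 72316954, mm8) read 12.46, 12.59 and 12.57 in myoblasts, 11.75, 11.84 and 11.79 in myotubes, 12.20, 12.26 and 12.26 in EDL, and 11.05, 11.12 and 11.07 in soleus. The 3 EDL arrays were above the 3 soleus arrays by more than 1 unit, a difference of -1.16 (SE 0.07, adjusted p = 9.25e-07), and soleus was also lower than myoblasts, at -1.46 (SE 0.07, adjusted p = 9.83e-09). On the spike-in scale soleus minus EDL was -1.43 for Xrcc5 with an adjusted p of 0.0907, not called. Its partner Xrcc6 was -0.15 in soleus minus EDL, not called.

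**Figure D4:**
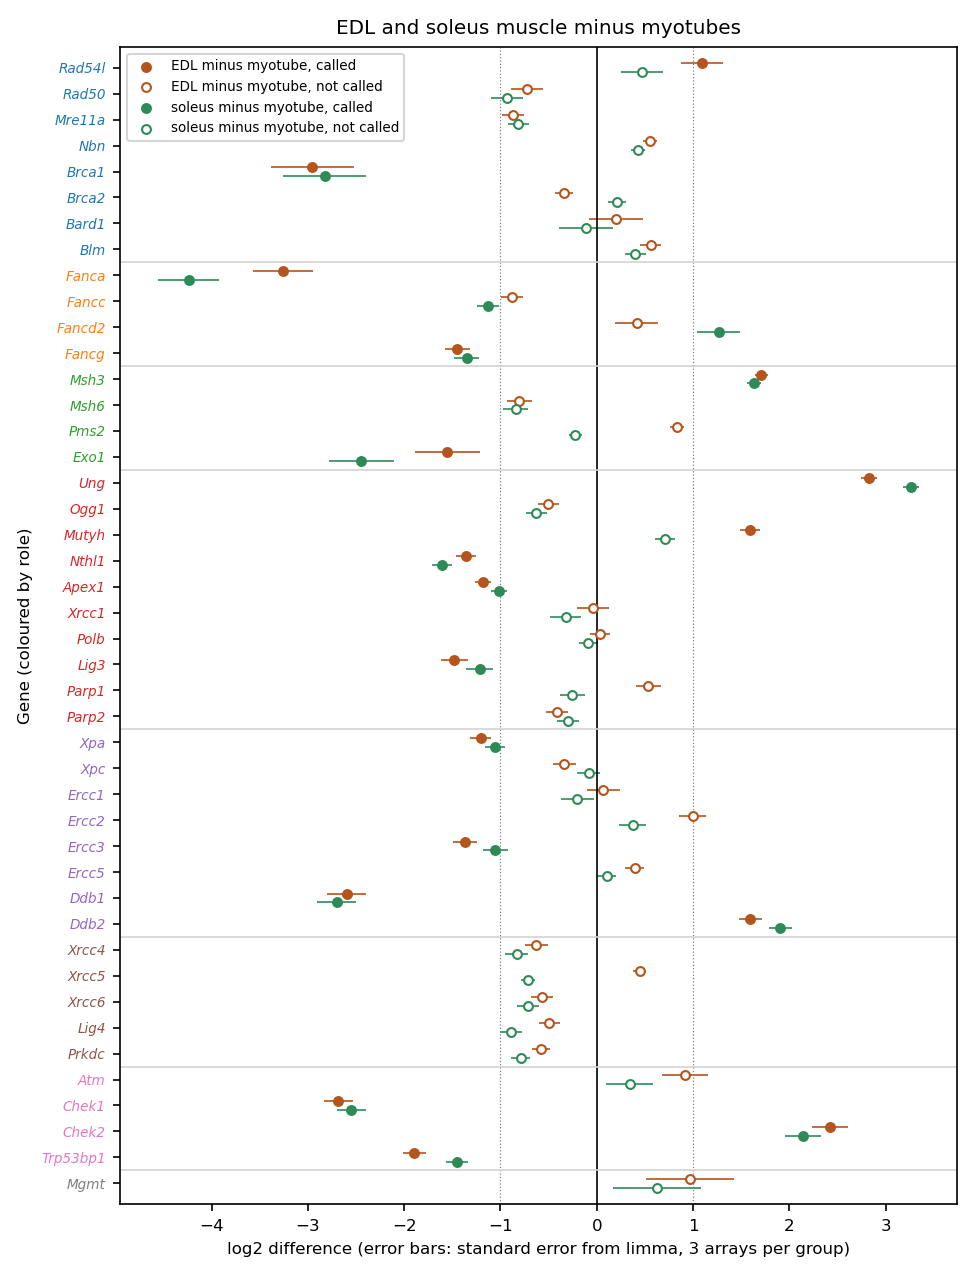
Log2 difference of each gene in EDL (orange) and soleus (green) minus myotubes, with standard errors from limma, filled where called. Ung, Chek2, Msh3 and Ddb2 lie to the right of 1 in both muscles, and Fanca, Brca1, Ddb1, Chek1 and Exo1 lie to the left of -1 in both.

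The checkpoint kinases stop the cell cycle when DNA is damaged: Atm answers to breaks and acts through Chek2, and Atr, which answers to stalled replication, acts through Chek1. Chek1 (probe at chromosome 9, 36459511 to 36459570, mm8) read 9.75, 10.02 and 10.08 in myoblasts, 6.44, 6.87 and 6.78 in myotubes, 4.04, 3.77 and 4.21 in EDL, and 4.27, 4.07 and 4.09 in soleus. It stepped down from myoblasts to myotubes, at -3.26 (SE 0.15, adjusted p = 2.28e-08). In EDL no array was well above background. The fitted EDL differences were -2.69 from myotubes and -5.94 from myoblasts (adjusted p = 6.46e-08 and 9.67e-11). By the bound used for Bard1, EDL was at least 4.83-fold below myotubes and 46.2-fold below myoblasts, for the main background subtraction only. Soleus, with 1 array of 3 above background, was lower than myotubes, at -2.55 (SE 0.15, adjusted p = 1.03e-07). The other Chek1 probe gave -2.30 and -1.91. With normexp the muscle differences from myotubes were -0.53 and 0.29, neither called.

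Chek2 (probe at chromosome 5, 111105830 to 111105889, mm8) read 7.87, 7.46 and 7.65 in myoblasts, 4.94, 4.23 and 4.66 in myotubes, 7.00, 7.18 and 6.91 in EDL, and 6.99, 6.70 and 6.56 in soleus. It was lower in myotubes than in myoblasts, at -3.05 (SE 0.19, adjusted p = 1.98e-07) and higher than in myotubes by 2.42 (SE 0.19, adjusted p = 8.24e-07) in EDL and 2.14 (SE 0.19, adjusted p = 2.32e-06) in soleus, with no overlap between myotubes and the other groups. Neither muscle was called against myoblasts (-0.63 in EDL, -0.91 in soleus). Both were called lower than myoblasts as the mean of its probes (-1.38 and -1.80) and on the spike-in scale (-1.95 and -2.51), and soleus also without myoblast replicate 2 (-1.01) or soleus replicate 1 (-1.03). The soleus difference from myotubes was 0.90 and not called on the spike-in scale, and neither muscle was called with normexp (1.23 and 1.71). The other Chek2 probe was well above background in myoblasts alone. Atm read 8.98, 9.01 and 9.07 in myoblasts, 7.73, 7.64 and 7.81 in myotubes, 8.69, 8.70 and 8.53 in EDL, and 8.41, 7.35 and 8.43 in soleus, with soleus replicate 2 below the other soleus arrays by more than 1 unit. Atm was lower in myotubes, at -1.29 (SE 0.24, adjusted p = 0.000804), and its muscle differences from myotubes of 0.92 and 0.34 were not called, though EDL was without slide 3 (1.02).

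Trp53bp1, the mediator that protects broken ends from resection and so competes with Brca1, read 10.35, 10.11 and 10.26 in myoblasts, 11.22, 10.88 and 11.05 in myotubes, 9.17, 9.06 and 9.24 in EDL, and 9.68, 9.42 and 9.70 in soleus. Myotubes were its highest group, 0.81 above myoblasts and under the 2-fold limit, and both muscles were lower than myotubes, at -1.89 (SE 0.12, adjusted p = 1.45e-07) in EDL and -1.45 (SE 0.12, adjusted p = 1.27e-06) in soleus. Mgmt, which reverses alkylation of guanine directly, was not called in any of the 6 comparisons; without myotube replicate 2 or EDL replicate 1 it was called higher in EDL than in myotubes (1.25 and 1.24). As the mean of its probes Mgmt was called higher than in myotubes in EDL (1.52) and soleus (1.35), and higher than in myoblasts in both (1.28 and 1.12); its other probe read 2.07 in EDL and 2.08 in soleus against myotubes. Its replicates differed widely, from 4.44 to 5.91 within myotubes.

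**Figure D5:**
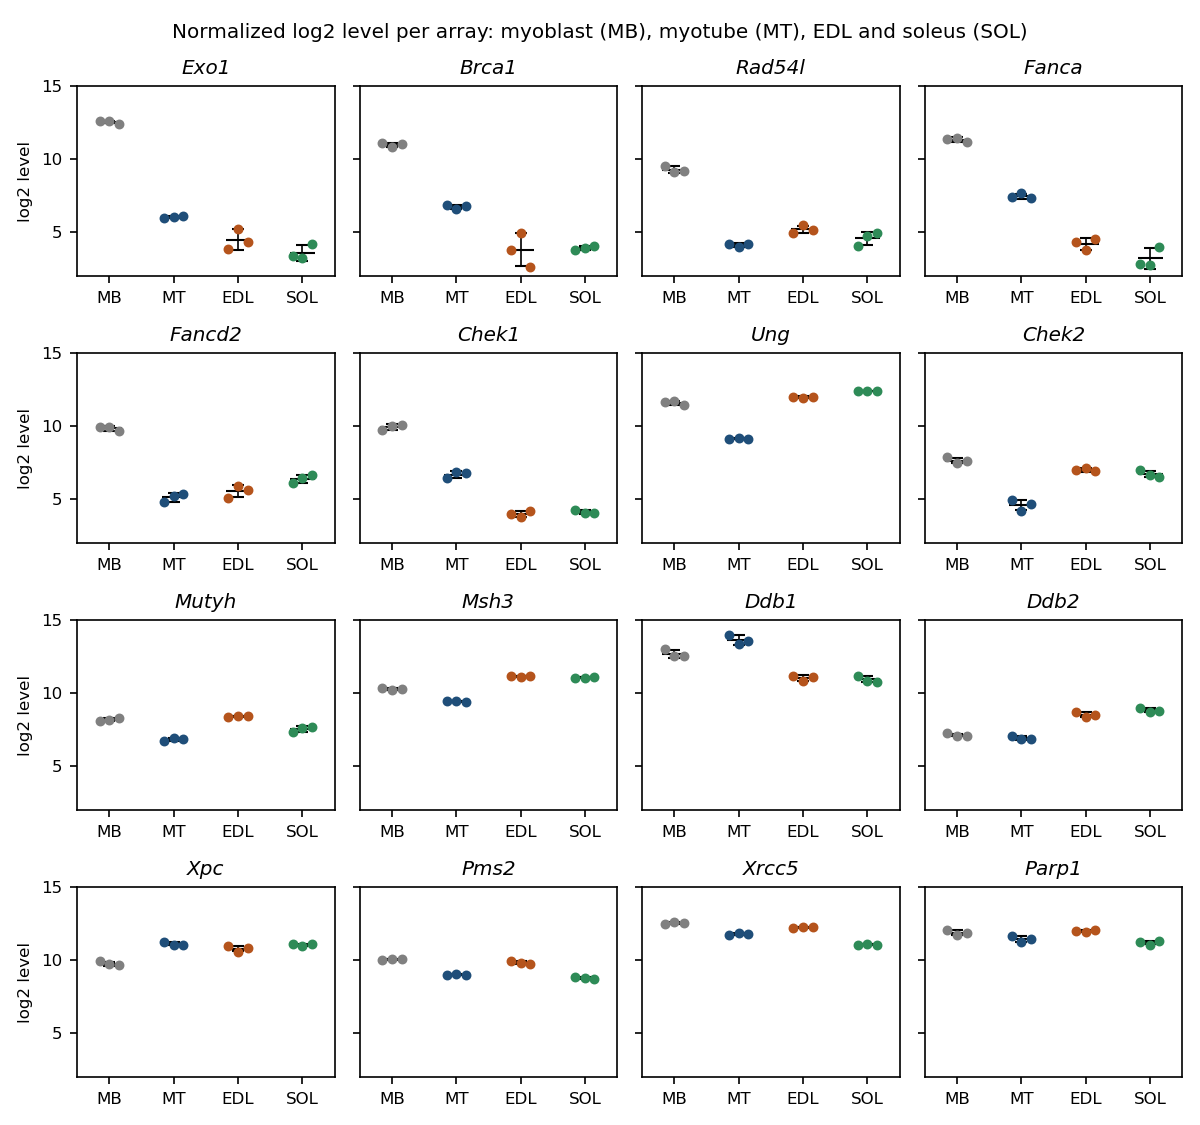
Normalized log2 level of 16 genes on each array, as points by group (MB, myoblast; MT, myotube; SOL, soleus), with the mean and SD of 3 arrays. Exo1, Brca1, Fanca and Chek1 step down from myoblasts to myotubes to muscle, Ung and Chek2 are lowest in myotubes, and Ddb1 is highest in myotubes. The muscle values of Exo1, Brca1, Fanca and Chek1 lie at the edge of detection.

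Myotubes were not an intermediate group for every gene. Ung, Chek2, Mutyh, Rad54l and Fancd2 were lower in myotubes than in myoblasts and higher in at least 1 muscle than in myotubes. On the spike-in scale the muscle rises of Mutyh, Rad54l and Fancd2 were not called, and with normexp those of Rad54l and Chek2 were not. Exo1, Brca1, Fanca and Chek1 were called lower at both steps. Their muscle values lie at the edge of detection, and with normexp none of them was called in either muscle against myotubes. Against myoblasts, 2 genes were higher and 23 lower in EDL (56.8% called, beside 57.9% of all genes; 4.55% higher beside 33.7%, and 52.3% lower beside 24.2%), and 2 were higher and 26 lower in soleus (63.6% called, beside 55.4%; 4.55% higher beside 31.3%, and 59.1% lower beside 24.1%). The groups did not overlap for 40 genes in EDL (beside 81.2% of all genes) and for 38 in soleus (beside 79.5%). The genes higher than in myoblasts were Xpc and Ddb2 in both muscles, but on the spike-in scale 0 were higher in either and 35 (EDL) and 38 (soleus) were lower. The medians over all genes on that scale were -1.02 in EDL and -1.39 in soleus. These comparisons share their groups with those above. The fall of the proliferation markers and the rise of endothelial, fibroblast and macrophage markers went with the same groups, and their part in the differences of the repair genes was not tested. Top2a, the topoisomerase of dividing cells, was 12.07 in myoblasts, 6.12 in myotubes and not well above background on any muscle array, and the proliferation antigen Mki67 differed by -5.69 in myotubes.

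The rest of the repair machinery was read from a list of 124 other genes of the same roles, of which 119 were tested. In myotubes 47 were lower and 5 higher (43.7% called, beside 35.4% of all genes, median -0.49). In EDL minus myotube 14 were higher and 20 lower (28.6%, beside 47.9%), and in soleus minus myotube 13 were higher and 23 lower (30.3%, beside 45.4%). By role, 8 of 10 other Fanconi genes, 10 of 21 other recombination genes and 11 of 20 other checkpoint genes were lower in myotubes. Of the other nucleotide excision genes 3 of 23 were lower. Among all genes tested 16.2% were lower. Cdc25c, the phosphatase that opens mitosis, differed by -6.44, Neil3, a glycosylase, by -5.70, Fanci, the partner of Fancd2, by -5.44, and Rad51ap1, a recombination cofactor, by -4.96. Clspn, the adaptor that lets Atr reach Chek1, was at least 50.8-fold lower in myotubes. The 5 higher genes were Msh5 (1.94), Neil1 (1.86), Parp3 (1.82), Rad52 (1.72) and Ube2b (1.25).

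Several of these other genes also stood lowest in myotubes on the percentile scale. Spike-in scaling moved every gene by -0.97 in EDL and -1.24 in soleus against myotubes, and calls on that scale are not given here for these genes. Rad51ap1 was higher than in myotubes by 1.87 in EDL and 2.36 in soleus, Ube2t, the conjugating enzyme of the Fanconi ligase, by 1.80 and 3.43, Mbd4, a thymine glycosylase, by 2.26 and 1.89, and Xrcc2, a recombination gene, by 2.25 and 1.52. The polymerase subunit Rev3l and its partner Rev1, which copy past lesions, were higher in EDL by 1.57 and 1.39. Cul4b, a scaffold of the ligase in which Ddb1 acts, differed from myotubes by -1.49 in EDL and -1.28 in soleus, and Cdk7, the kinase of TFIIH, by -1.32 and -2.13. Between the muscles 3 of the 119 genes were higher and 1 lower in soleus than in EDL (3.36%, beside 9.74% of all genes): Polq, the polymerase of microhomology end joining, was at least 5.94-fold higher, Ube2t 1.64 and Fanci 1.54 higher on the log2 scale, and Polk, a polymerase that copies past lesions, was lower at -1.23.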

How the data were processed

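The authors deposited 1 scanner output per array, and the values used are spot intensities that were background-subtracted and detrended by Agilent Feature Extraction 10.5.1.1, per the file headers, and not normalized between arrays. Of 43379 spots that are not controls, 68 to 140 per array were flagged as outliers and left out, and none was saturated. Intensities were put on a log2 scale, centred on the 75th percentile of each array and shifted by a constant of 9.71. Spots of a probe were averaged, and 28618 probes were kept, each well above background in every array of some group. Probes were named by accession through RefSeq (24314 probes), current symbol (6284) or synonym (2426), or kept the name in the file (8072), except 78 probes of the repair genes, which were taken by the file's gene name. Where several probes were kept, the one with the highest mean signal stood for the gene. That was so for 23 of the 44 repair genes, and 21 had 1 kept probe. The build of the probe positions is mm8, per the file headers, and promoter sequences are from RefSeq, GRCm38.p6.

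Differences were fitted with limma 3.58.1 in R 4.3.3 (lmFit, then eBayes) over the 12 arrays together, with a mean for each of the 4 groups and without a block, with Benjamini-Hochberg adjustment across the 18870 genes tested (18869 where myoblasts are compared). Calls needed an adjusted p below 0.05 together with a log2 difference of 1 or more in size. The fit was also run on simulated data. That simulation drew errors independently for each array and changed few genes, unlike these data. It therefore does not show how well the calls hold here. Other software was the data.table package (version 1.17.8), Python 3.11.15, pandas 2.3.3 and matplotlib 3.10.9. The members and lists were chosen with earlier results of these data known. All 45 genes are described by role; values on every array are given for the 2 genes of each role with the largest called difference, for genes with opposite calls in 2 comparisons, and for some others (Msh3, Pms2, Xpc, Brca2, Mre11a, Atm and Trp53bp1) chosen after their values were seen. Of the other repair genes, up to 2 per list, direction and comparison are named.

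Each of 3 slides held 1 array of every group, and replicate numbers follow the slides. Deviations from the group means correlated at 0.225 to 0.66 in 18 pairs of arrays on the same slide, so arrays of a slide share variation. In 36 pairs on different slides they correlated at -0.493 to 0.201. Deviations within a group cancel out, so the lower values between slides follow partly from those within slides and are not separate evidence. Slide 1 was scanned on another day than slides 2 and 3. Because a group kept 1 position on the slides, its effect and that of the position cannot be told apart. The alternatives tried were quantile, spike-in and normexp processing, the authors' deposited values, other filters, probe rules and fold limits, the slide as a block, single slides, and leaving out each array or slide. Those deposited values are processed intensities on a linear scale, with medians of 123 to 283 per array. Their log2 values correlated at 0.9976 to 0.9997 across probes with the log2 scanner values of the same array. How the authors normalized them between arrays is not given in the sources used here, but the highest value was 608000 on every array. The median differences of the repair genes from myotubes were -0.51 (EDL) and -0.64 (soleus) in them and with quantile normalization alike. These 2 settings are therefore not separate checks. Arrays give no counts, and their number limits the precision.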

Additional observations from a re-analysis of the deposited data

Results flagged for a closer look

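Pms2, the mismatch repair endonuclease subunit, differed from myotubes unequally in the 2 muscles by a test of the difference itself: soleus minus EDL was -1.05 (SE 0.07, adjusted p = 2.4e-06 by limma). Soleus lay below EDL in 3 of 3 slides, which follows from the lack of overlap between these groups and is not separate support. The other Pms2 probe read 0.49, and the call was lost as the mean of probes (-0.28), with normexp (-0.76) and on the spike-in scale (-1.32, adjusted p = 0.0957).

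Xrcc5, the larger Ku subunit, likewise differed between the 2 muscles in a tested comparison: soleus minus EDL was -1.16 (SE 0.07, adjusted p = 9.25e-07 by limma). Soleus lay below EDL in 3 of 3 slides, which again follows from the lack of overlap. The call of Xrcc5 was lost on the spike-in scale (-1.43, adjusted p = 0.0907).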

How the results depend on the processing

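Of 174 counts of called genes under 29 alternatives, 154 stayed within 1.5 times the count reported and 20 did not. Of 6300 differences of single genes, 5983 kept their direction and their side of the limits, 120 changed sign without being called under either setting, 83 lost a call, 101 gained one and 13 changed sign where a call was involved. Of 111 calls, 63 were never lost. With no minimum fold the count for myotubes against myoblasts was 37, for EDL and soleus against myotubes 38 and 33, for soleus against EDL 12 and for EDL against myoblasts 38. A minimum of 1.5-fold gave 33 for myotubes against myoblasts, 28 for soleus against myotubes and 7 for soleus against EDL. With spike-in scaling the count was 33 for soleus against myotubes and 0 against EDL, where 5 genes had an unadjusted p under 0.05 by limma. With normexp it was 11 for EDL against myotubes, and for soleus 10 against myotubes, 1 against EDL and 18 against myoblasts, and the split was 3 higher and 14 lower in myotube minus myoblast and 4 higher and 6 lower in soleus minus myotube. The mean of all probes gave 1 in soleus minus EDL, and single slides gave 5, 4 and 4 there without a test. For all these alternatives and those in the next paragraph, the share of all genes called is not given here. The counts therefore show only how the number of called repair genes depends on the setting.

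Leaving out arrays or slides gave 19 to 21 for myotubes against myoblasts, 17 to 20 (EDL) and 17 to 19 (soleus) against myotubes, and 23 to 26 (EDL) and 27 to 29 (soleus) against myoblasts. In soleus minus EDL it gave 2 to 4, with 4 without EDL replicate 2 (Fanca -1.20 and Fancd2 1.03 were added) and 4 without soleus replicate 3 (Fanca -1.38 and Exo1 -1.20 were added). With the slide as a replicate block the counts were 20, 18, 18 and 2 in these 4 comparisons and 25 and 28 for EDL and soleus minus myoblast, and no call of a repair gene was lost or gained.

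Among differences with a call, the sign changed with spike-in scaling for Brca2 (-1.03) and Ercc5 (-1.13) in soleus minus myotube, for Parp1 (-1.21), Xpc (-0.30), Lig4 (-1.03) and Prkdc (-1.27) in EDL minus myoblast, and for Xpc (-0.32), Ercc2 (-1.40) and Ercc5 (-1.10) in soleus minus myoblast. It changed with normexp for Brca1 (0.32), Exo1 (0.61) and Chek1 (0.29) in soleus minus myotube, and in the authors' deposited table for Bard1 (-1.03) in EDL minus myotube. The cause was not tested. The filter for probes well above background on all 12 arrays leaves 38 of the 44 genes, without Rad54l, Brca1, Bard1, Fanca, Exo1 and Chek1, whose muscle values lie at the edge of detection.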
